A study of Homo sapiens with 36 samples.

Results

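WiDr, a human colorectal adenocarcinoma line, entered the study with a control in each of its hairpin and guide experiments. The 6 libraries compared here are the 3 that carried a non-silencing short hairpin RNA in the pGIPZ vector (title pGIPZ-NS, called the hairpin control) and the 3 that carried a non-target single guide RNA (title NT-1, called the guide control). They were chosen by their titles and are 6 of the 36 libraries of the series. All were poly-A RNA-seq libraries of cells grown in DMEM with fetal bovine serum, and the design text calls the 3 libraries of an arm biological replicates. The other WiDr libraries used below carried 1 of 2 targeting hairpins (6 libraries, called targeting hairpin 1 and 2) or 1 of 2 targeting guides (6 libraries, called targeting guide 1 and 2). The hairpin controls of MDA-MB-468, a breast cancer line, and PANC-1, a pancreatic cancer line, served only as a scale. The labels name neither the vector of the guides, nor a selection drug, nor whether a clone or a pool of cells was used, so vector, selection, passage and culture cannot be told apart from the arm. For 4 of the 6 targeting guide libraries another label field names the other guide, and the titles were used.

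As background, a short hairpin RNA is made inside the cell, trimmed by DROSHA and DICER1 and loaded into an Argonaute protein, which it guides to matching messenger RNAs. A single guide RNA instead binds the Cas9 nuclease and leads it to matching DNA. Both controls are designed to match no human gene, so they differ in the type of construct and in the history of the culture but in no intended target. Many cells answer foreign nucleic acid with interferon and its response genes.

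The 6 libraries held 29737177 to 34160852 counts. The share of ribosomal RNA genes was 1.59 to 2.71% in the hairpin control and 5.24 to 7.25% in the guide control. Genes with a count numbered 17289 to 17482 in the hairpin control and 17809 to 18391 in the guide control. Replicates of an arm differed by more than sampling noise, with a chi-square per degree of freedom of 3.88 to 14.1. Colon epithelial markers were mixed in both cultures, with some present and others low. KRT20, an intestinal keratin whose values are given further on, was present, as were EPCAM, KRT8, KRT18, LGALS4, VIL1 and HNF4A. CDX1 and CDX2, intestinal transcription factors, were low, and CDH17 and GPA33 were near 0 in both arms. T-cell genes CD3E, CD3D and CD2, the pancreatic acinar factor PTF1A, the fibroblast receptor PDGFRA and the endothelial receptor KDR had no count in any of the 6 libraries.

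The comparison asked how far apart 2 controls of the same line stand. Of 14355 genes tested, 62.3% passed an adjusted p of 0.05 (edgeR quasi-likelihood test, Benjamini-Hochberg), 31.1% higher and 31.2% lower in the guide control. Most of the differences were small: 70.1% of the called genes differed by less than 1.5-fold and 11.1% by 2-fold or more. The median absolute log2 fold change was 0.278, against 0.915 between the hairpin controls of WiDr and MDA-MB-468 and 0.941 between those of WiDr and PANC-1. Over 2-fold and past the test were 994 genes (6.92%), 658 higher (4.58%) and 336 lower (2.34%) in the guide control. Of the called genes 135 differed by more than 4-fold. Levels are given as CPM, the counts of a gene relative to the library total after TMM scaling, which allow a gene to be compared between libraries but not with another gene of other length. Values of the 6 control libraries were scaled among those 6, and means over the 6 WiDr arms were scaled among 18 libraries, so the 2 sets differ slightly for the same libraries.

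**Figure D1:**
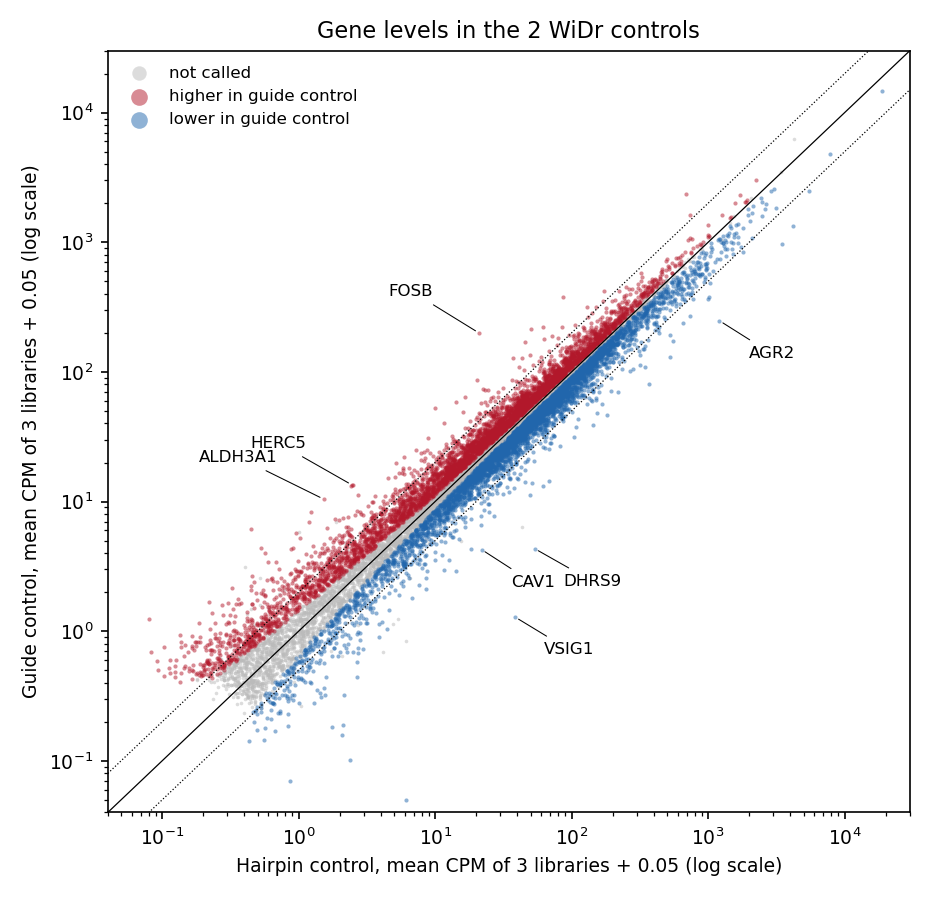
Mean CPM of each of 14355 genes in the hairpin control (horizontal axis) and the guide control (vertical axis), 3 libraries each, on log scales, with 0.05 added. Red and blue points passed the test as higher or lower in the guide control, the solid line marks equal levels and the dotted lines mark 2-fold; VSIG1 and DHRS9 lie farthest below the line among well-expressed genes and FOSB farthest above it.

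Immediate early genes held the largest rise among genes with a mean of at least 5 CPM. FOSB, an AP-1 transcription factor switched on within minutes by growth signals and stress (chr19:45467995-45475179, GRCh38), read 20.4, 21.4 and 20.97 CPM in the hairpin control and 204, 195 and 199.9 CPM in the guide control. It was 9.52-fold higher in the guide control, with little spread within either arm (log2 fold change 3.25 ± 0.046 (SE), adjusted p = 1.46e-18). FOS, its partner family member, read 50.5, 50.8 and 49.7 CPM in the hairpin control and 211, 212 and 222 CPM in the guide control and EGR1, an early zinc-finger factor, read 83.6, 77.2 and 76.97 CPM in the hairpin control and 180.2, 186 and 183 CPM in the guide control. DUSP1, a phosphatase that shuts off MAP kinases, rose as well (log2 fold change 1.96 ± 0.057 (SE), adjusted p = 1.03e-14). Of 27 immediate early, SRF and YAP target genes tested, 14 rose and 7 fell, with a median of 0.31 against 5.72e-05 over all genes tested. JUN rose (1.06), while JUNB (-0.80) and KLF4 (-0.997) fell.

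Wnt feedback genes, which in colon epithelium report beta-catenin activity and restrain it, were nearly all higher in the guide control. SP5, a transcription factor induced by Wnt signals, read 2.76, 2.41 and 2.19 CPM in the hairpin control and 12.7, 12.6 and 15.04 CPM in the guide control (log2 fold change 2.45 ± 0.12 (SE), adjusted p = 7.61e-12). NKD1, an inhibitor that binds Dishevelled, read 19.02, 20.7 and 20.7 CPM in the hairpin control and 88.9, 85.4 and 87.7 CPM in the guide control (log2 fold change 2.11 ± 0.052 (SE), adjusted p = 1.56e-15). In both genes every guide control library lay above every hairpin control library, as the rule that chose the largest rises required. The arms did not overlap in 66.7% of all genes tested. AXIN2, part of the complex that degrades beta-catenin, rose 1.85-fold (log2 fold change 0.89 ± 0.046 (SE), adjusted p = 2.95e-11), ZNRF3, which removes Wnt receptors, rose by 1.04 and LGR5, a stem cell receptor, by 0.99 on the log2 scale. NOTUM, an enzyme that inactivates Wnt ligands, was low in both arms and rose from 0.635 to 3.38 CPM. Of 18 Wnt feedback and stem genes tested, 15 rose and 3 fell (SMOC2 -1.84, MYC -0.53, SOX9 -0.31), with a median of 0.72.

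Interferon-stimulated genes were the list with the highest median. These genes encode antiviral effectors and are switched on together by signals from interferon receptors. Of 40 tested, 34 rose, 3 fell (IFI27 -0.36, IRF7 -0.25, IFI6 -0.14) and 3 did not pass (ISG20, IRF9 and ISG15), with a median of 0.73. IFIT1, which binds foreign capped RNA, read 45.5, 46.1 and 44.1 CPM in the hairpin control and 172, 168 and 168 CPM in the guide control (log2 fold change 1.90 ± 0.042 (SE), adjusted p = 3.18e-16). HERC5, the ligase that attaches ISG15 to proteins, rose 5.54-fold (log2 fold change 2.47 ± 0.11 (SE), adjusted p = 2.38e-12), while ISG15 itself read 146, 179 and 164 CPM in the hairpin control and 165, 161 and 163 CPM in the guide control, with overlapping arms. MX1, an antiviral GTPase, read 68.6, 72.96 and 74.3 CPM in the hairpin control and 191, 183 and 197 CPM in the guide control. STAT2, a transcription factor of the interferon response, rose by 0.56 on the log2 scale.

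Sensors of nucleic acid moved less evenly. ZBP1, a sensor of Z-form nucleic acid, was close to absent in the hairpin control and read 0.164, 0.181 and 0.166 CPM in the hairpin control and 1.34, 1.86 and 1.72 CPM in the guide control (log2 fold change 3.23 ± 0.31 (SE), adjusted p = 9.42e-08). DHX58, a regulator of RIG-I-like receptors, rose (1.41), as did DDX58, which is RIG-I (1.14), TMEM173, which is STING (0.87), and TLR3 (0.66). TLR9, the receptor of unmethylated DNA, fell from 2.63 to 0.528 CPM. Among the proteins that process and use small RNAs, DROSHA, DGCR8, TARBP2 and AGO1 rose by 0.34 to 0.48, AGO3 (-0.28) and XPO5 (-0.11) fell, and DICER1 (0.10) and AGO2 (0.04) did not pass. Over the 19 genes of this list 10 rose and 6 fell (52.6% and 31.6%, against 31.1% and 31.2% of all genes tested).

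Genes of class I antigen presentation, many of which also answer to interferon, went the other way. HLA-B, a class I heavy chain, read 147, 156 and 149 CPM in the hairpin control and 57.2, 61.1 and 62.4 CPM in the guide control (log2 fold change -1.32 ± 0.045 (SE), adjusted p = 1.17e-13). B2M, the light chain shared by all class I molecules, read 869, 857 and 886 CPM in the hairpin control and 587, 572 and 543 CPM in the guide control (log2 fold change -0.62 ± 0.038 (SE), adjusted p = 3.1e-10). The arms did not overlap in either gene, as in 66.7% of all genes tested. HLA-C (-1.16), HLA-F (-0.88) and the proteasome activator subunits PSME2 (-0.96) and PSME1 (-0.56) also fell, and ERAP1, which trims peptides, fell by 0.81. Of 19 genes tested 14 fell, 1 rose and 4 did not pass, with a median of -0.61. The gene that rose was NLRC5, the activator of class I genes, at 3.42, 3.82 and 3.02 CPM in the hairpin control and 8.83, 9.57 and 11.3 CPM in the guide control. TAP1, TAP2, TAPBP and PSMB8 did not pass. HLA genes are near copies of each other, and the way reads were shared between them makes their separate values uncertain.

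The promoters of some of these genes were read from RefSeq (GRCh38.p14) to show the elements that interferon factors and endoplasmic reticulum stress factors are known to bind. A form of the interferon-stimulated response element (GAAA, 2 bases of any kind, GAAA) was searched on both strands of the 250 bases before the start. It was present in 19 of the 31 interferon-stimulated genes with an entry (61.3%), in 7 of 15 class I genes (46.7%) and in 3.07% of all 27305 promoters. The median log2 fold change of the interferon-stimulated genes was 0.72 with the motif and 0.58 without it. In the class I list it was -0.41 with and -0.58 without, so the motif stood before genes that rose and before genes that fell. The sequences below are on the strand of the gene, 5′ to 3′, and stop before the outermost gene start in GENCODE 29, with motif matches in capitals. IFIT1, HERC5 and IFI44 are shown as genes that rose and B2M as a gene that fell with the same letters.
IFIT1 (chr10:89392423-89392545, plus strand): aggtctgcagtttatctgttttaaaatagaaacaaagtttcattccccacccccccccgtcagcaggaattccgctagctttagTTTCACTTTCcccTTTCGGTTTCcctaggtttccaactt
HERC5 (chr4:88456919-88457116, plus strand): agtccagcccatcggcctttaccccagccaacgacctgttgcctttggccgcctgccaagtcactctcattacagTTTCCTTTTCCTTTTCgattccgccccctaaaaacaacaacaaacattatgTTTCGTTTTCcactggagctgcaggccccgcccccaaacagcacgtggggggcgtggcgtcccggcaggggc
IFI44 (chr1:78649589-78649788, plus strand): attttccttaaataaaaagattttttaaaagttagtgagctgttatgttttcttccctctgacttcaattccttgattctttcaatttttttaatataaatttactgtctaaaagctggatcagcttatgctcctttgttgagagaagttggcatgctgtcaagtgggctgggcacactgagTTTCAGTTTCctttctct
B2M (chr15:44711317-44711486, plus strand): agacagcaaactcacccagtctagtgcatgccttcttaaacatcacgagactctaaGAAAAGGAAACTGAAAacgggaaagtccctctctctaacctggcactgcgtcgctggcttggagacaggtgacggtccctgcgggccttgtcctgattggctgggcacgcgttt
IFIT1 carries 2 matches, HERC5 and IFI44 3 and 1, and B2M 2, some of them overlapping. IFI44, an interferon-induced protein of unsettled role, rose with log2 fold change 1.21 ± 0.049 (SE), adjusted p = 1.12e-12. A match describes the letters only.

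Listed stress genes of the endoplasmic reticulum and of amino acid supply were lower in the guide control almost without exception. This list joins targets of ATF4, which answers amino acid shortage, with chaperones of the unfolded protein response. Of 27 genes tested 26 fell and none rose, with a median of -0.52, and CRELD2 (-0.09) did not pass. The stress genes ATF3 and SESN2 were not in this list. Scaled among 18 libraries, ATF3 averaged 51.9 CPM in the hairpin control and 51.5 CPM in the guide control. SESN2 averaged 74.9 and 77.4 CPM. HSPA5, the main chaperone of the compartment, read 1533, 1508 and 1503 CPM in the hairpin control and 802, 801 and 836 CPM in the guide control (log2 fold change -0.90 ± 0.036 (SE), adjusted p = 1.25e-12). XBP1, a transcription factor of the response, read 782, 763 and 765 CPM in the hairpin control and 500.1, 506 and 507 CPM in the guide control (log2 fold change -0.61 ± 0.035 (SE), adjusted p = 9.88e-11). The arms were well apart in both. DDIT4, an inhibitor of mTORC1 signalling, fell by 1.24, DNAJB9, a co-chaperone, by 1.22, DDIT3, the factor CHOP, by 1.06 and ASNS, asparagine synthetase, by 0.61, while ATF4 itself fell by 0.28 on the log2 scale.
A relaxed form of the endoplasmic reticulum stress element (CCAAT, 9 bases of any kind, CCA) was present on either strand in 7 of the 25 genes of this list with an entry (28%) and in 1.02% of all promoters. The 7 genes, which include HSPA5 and XBP1, had a median of -0.90, and the others -0.52. The same windows of HSPA5 and XBP1 are shown because they hold 2 matches and 1 match.
HSPA5 (chr9:125241344-125241543, minus strand): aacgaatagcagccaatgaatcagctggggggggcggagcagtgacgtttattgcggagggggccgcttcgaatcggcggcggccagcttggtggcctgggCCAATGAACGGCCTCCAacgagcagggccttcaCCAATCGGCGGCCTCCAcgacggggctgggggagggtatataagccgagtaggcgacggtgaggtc
XBP1 (chr22:28800598-28800769, minus strand): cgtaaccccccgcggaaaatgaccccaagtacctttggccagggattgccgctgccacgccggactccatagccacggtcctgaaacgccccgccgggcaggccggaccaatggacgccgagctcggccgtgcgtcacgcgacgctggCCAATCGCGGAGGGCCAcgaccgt

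Hypoxia and glycolysis genes and growth factor feedback genes were also lower on balance. Of 30 hypoxia and glycolysis genes 20 fell and 5 rose (66.7% and 16.7%), with a median of -0.29. Over all genes tested 31.2% fell and 31.1% rose. NDRG1, a stress and hypoxia gene, read 209, 227 and 218 CPM in the hairpin control and 68.9, 71.3 and 70.9 CPM in the guide control. The carbonic anhydrase CA9 (-0.33), the glucose carrier SLC2A1 (-0.89), lactate dehydrogenase LDHA (-0.90) and VEGFA (-0.81) fell too, whereas the phosphofructokinase subunits PFKL (0.54) and PFKM (0.41) rose. Of 24 EGF family and MAP kinase feedback genes 16 fell and 6 rose (66.7% and 25%). The ligands HBEGF (-0.91), AREG (-0.76) and TGFA (-0.72) and the feedback phosphatases DUSP4, DUSP5 and DUSP6 fell, and EGF, at 0.405 CPM in the hairpin control and 1.58 CPM in the guide control, rose.

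**Figure D2:**
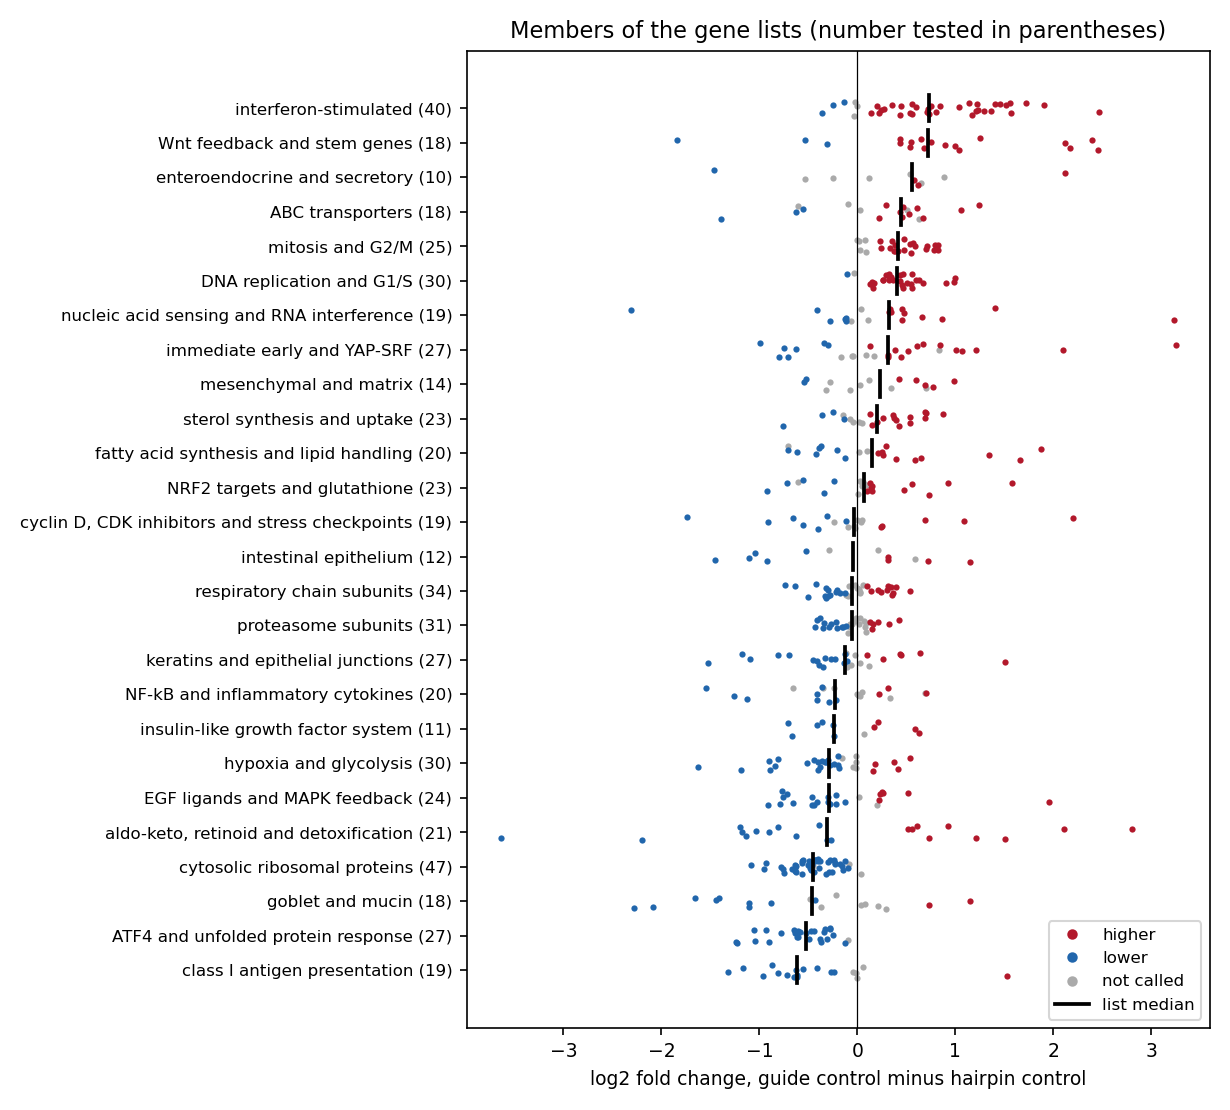
Log2 fold change of each tested gene in 26 gene lists, guide control minus hairpin control, with the list median as a black bar and the number tested in parentheses. Interferon-stimulated (median 0.73) and Wnt feedback genes (0.72) lie highest, and class I presentation (-0.61) and ATF4 and unfolded protein response genes (-0.52) lowest.

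The largest falls, among genes with a mean of at least 5 CPM, included epithelial surface and secretory genes. VSIG1, an adhesion protein of gastric-type epithelium (chrX:108044970-108079184, GRCh38), read 39.4, 37.5 and 38.3 CPM in the hairpin control and 1.40, 1.15 and 1.16 CPM in the guide control, 30.8-fold lower in the guide control (log2 fold change -4.95 ± 0.094 (SE), adjusted p = 4.65e-17). DHRS9, a retinol dehydrogenase (chr2:169064789-169096167), read 55.6, 52.6 and 52.3 CPM in the hairpin control and 4.27, 4.29 and 4.30 CPM in the guide control (log2 fold change -3.64 ± 0.070 (SE), adjusted p = 5.07e-17). The arms did not overlap in these genes, as the rule that chose the largest falls required. AGR2, a disulfide isomerase needed for mucin folding, read 1192, 1232 and 1204 CPM in the hairpin control and 254, 249.6 and 241 CPM in the guide control (log2 fold change -2.28 ± 0.039 (SE), adjusted p = 1.61e-17). MUC5AC, a gel-forming mucin, read 4134, 4363 and 4125 CPM in the hairpin control and 1274, 1316 and 1419.8 CPM in the guide control. Among 18 goblet and mucin genes 9 fell and 2 rose (50% and 11.1%, against 31.2% and 31.1% of all genes tested). SPDEF, a transcription factor of secretory cells (-0.88), TFF1 (-1.11) and AGR3 (-1.44) fell. The membrane mucins MUC1 (0.73) and MUC13 (1.15) rose.

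Structural and lineage genes split. KRT20 read 726, 735 and 744 CPM in the hairpin control and 274, 269 and 259.5 CPM in the guide control (log2 fold change -1.46 ± 0.037 (SE), adjusted p = 2.18e-15), and KRT7 (-1.53), KRT80 (-1.18) and occludin, OCLN (-1.10), fell, while the leaky-pore claudin CLDN2 rose (1.51). Of 27 keratin and junction genes 15 fell and 6 rose (55.6% and 22.2%, against 31.2% and 31.1% of all genes tested). CAV1 and CAV2, the caveolins that shape caveolae, lie next to each other on chromosome 7. CAV1 read 22.5, 20.9 and 22.1 CPM in the hairpin control and 4.33, 4.22 and 4.10 CPM in the guide control (log2 fold change -2.37 ± 0.081 (SE), adjusted p = 1.16e-13) and CAV2 fell by 1.89. EMP1, an epithelial membrane protein, read 181, 176 and 184 CPM in the hairpin control and 48.4, 47.996 and 42.9 CPM in the guide control. Among 12 intestinal markers 4 rose and 5 fell (33.3% and 41.7%, against 31.1% and 31.2% of all genes tested). Their median of -0.04 changed sign in 4 of the alternatives. Markers listed for other lines or cells moved singly: CFTR, a chloride channel listed for pancreatic duct, rose from 43.4 to 128 CPM, and LYZ, which makes up the summed level of the leukocyte list (1520 to 1580 CPM against 1990 to 2110, without TMM scaling), rose by 0.35. The part of other cells in any result was not tested. In bulk RNA fewer cells of a kind and less RNA per cell cannot be told apart.

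Retinoid and detoxification enzymes divided into 9 that rose and 12 that fell, and none of the 21 failed the test. The shares were 42.9% and 57.1%, against 31.1% higher and 31.2% lower over all genes tested. ALDH1A3, which makes retinoic acid, read 369, 372 and 365 CPM in the hairpin control and 81.9, 78.3 and 81.5 CPM in the guide control (log2 fold change -2.19 ± 0.038 (SE), adjusted p = 1.61e-17). ALDH1A1, its relative with a similar reaction, went up, at 88.5, 85.1 and 87.5 CPM in the hairpin control and 384, 379.7 and 365 CPM in the guide control (log2 fold change 2.11 ± 0.039 (SE), adjusted p = 3.53e-17). ALDH3A1, which oxidises other aldehydes, rose 6.99-fold (log2 fold change 2.80 ± 0.13 (SE), adjusted p = 4.93e-12). The retinol enzymes RDH10 (-1.04) and DHRS3 (-0.81) fell with DHRS9. The aldo-keto reductases AKR1B10 (1.57), AKR1C1 (0.73), AKR1C2 (0.92) and AKR1C4 (1.51) rose. AKR1C4 was low in both arms, at 0.235 CPM in the hairpin control and 0.676 CPM in the guide control (scaled among 18 libraries). The AKR1C genes are near copies with uncertain separate values. The transporter ABCG2 rose (1.06), and ABCG1, which exports cholesterol, fell (-1.39).

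**Figure D3:**
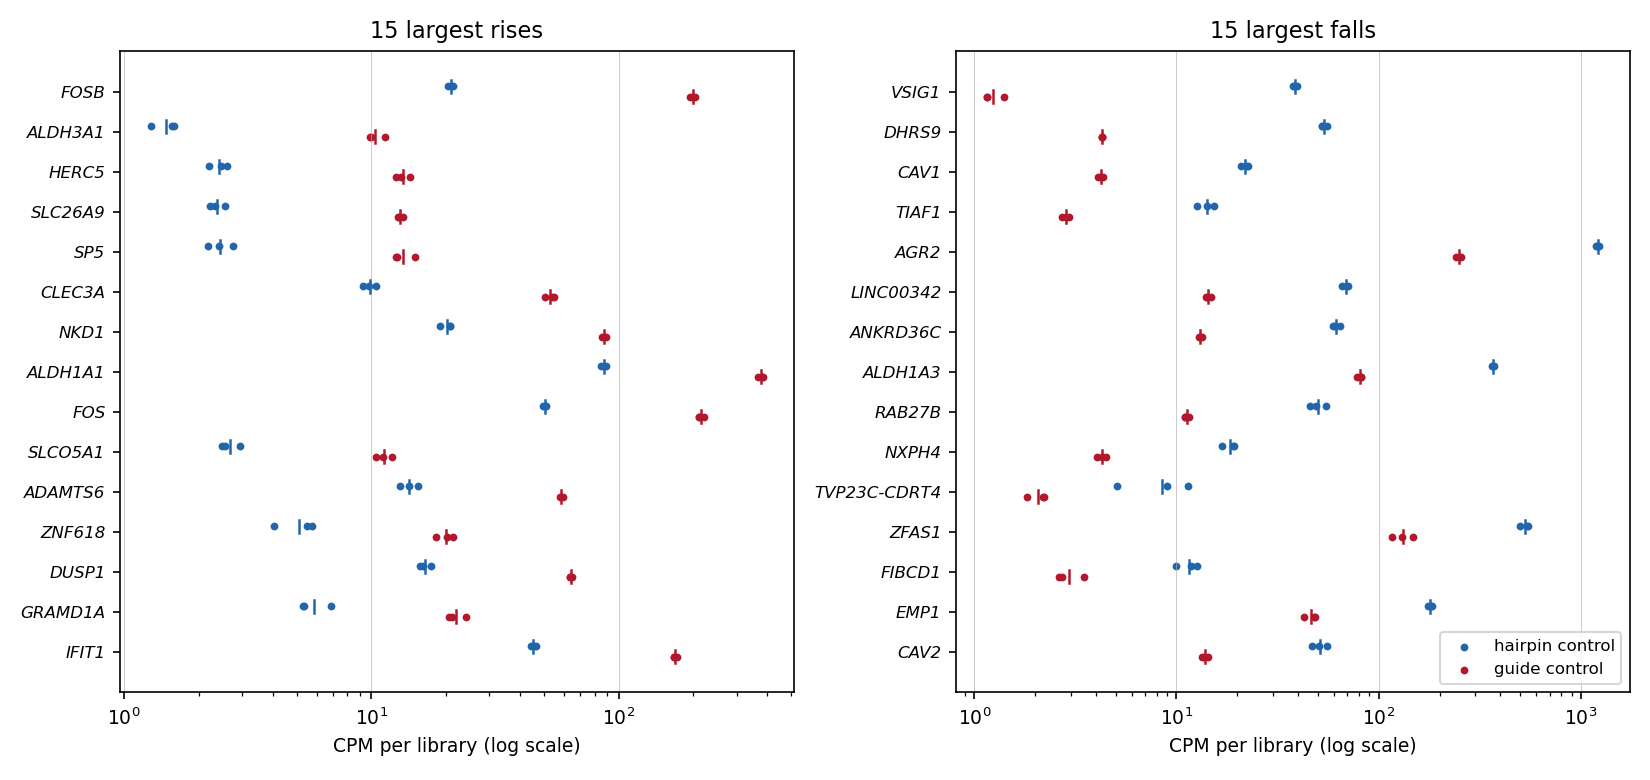
CPM of the 15 largest rises (left) and 15 largest falls (right) in each of the 6 libraries, log scale, with points for libraries and a short bar for the mean of 3. The 2 arms do not overlap in any of these genes, by the rule that chose them; FOSB sits near 20 CPM in the hairpin control and near 200 CPM in the guide control.

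Cell cycle genes were higher in the guide control. Of 30 DNA replication genes 28 rose and 1 fell (CDC6 -0.11), with a median of 0.40. MCM5, a subunit of the replicative helicase, read 26.4, 27.5 and 25.2 CPM in the hairpin control and 50.9, 51.6 and 55.3 CPM in the guide control (log2 fold change 0.99 ± 0.056 (SE), adjusted p = 8.87e-11), and CDC45 (0.90), MCM2 (0.67) and E2F2 (0.99) rose. Of 25 mitosis genes 20 rose and none fell, with a median of 0.42. TOP2A, the topoisomerase that untangles chromosomes, read 209.7, 187 and 197 CPM in the hairpin control and 347, 354 and 348 CPM in the guide control (log2 fold change 0.82 ± 0.042 (SE), adjusted p = 2.17e-11), whereas CDK1 (0.01), CDC20 (0.08) and PTTG1 (0.02) did not pass. CDKN2B, which inhibits CDK4 and CDK6, read 108, 102 and 104 CPM in the hairpin control and 31.1, 31.5 and 31.1 CPM in the guide control (log2 fold change -1.74 ± 0.046 (SE), adjusted p = 2.84e-15). CDKN1A, a broader inhibitor, fell by 0.56, and CDKN2C rose from 0.173 to 0.802 CPM.

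Ribosomal protein genes were lower as a group. Of 47 tested 44 fell, none rose and 3 (RPS28, RPS9 and RPL3) did not pass, with a median of -0.45. RPL10 fell by 0.78 (log2 fold change -0.78 ± 0.045 (SE), adjusted p = 1.26e-10). RPS27 read 709.8, 813 and 785 CPM in the hairpin control and 437, 363 and 288 CPM in the guide control, with a wider spread in the guide control. RPL38 and RPL37 passed with 6 libraries but not without hairpin control replicate 2 or 3 or guide control replicate 2, when the adjusted p was 0.066 to 0.072 and 0.056 to 0.059. With the replicate number as a block the adjusted p was 0.092 for RPL38 and 0.082 for RPL37. Short transcripts were lower over the whole table: the median was -0.11 over the 2695 shortest transcripts and 0.04 over the 2694 longest. GC content showed a trend too, with a median of -0.09 over the 2695 transcripts lowest in GC and 0.13 over the 2694 highest. With a trend for length and GC content removed, 37 of the 47 still fell and the median was -0.40. The ribosomal RNA share was higher in the guide control, at 5.24 to 7.25% against 1.59 to 2.71%, while this group was lower. Its part in the result was not tested. The respiratory chain subunits split into 11 higher and 14 lower (32.4% and 41.2%), and proteasome subunits into 6 and 12 (19.4% and 38.7%). Over all genes tested 31.1% were higher and 31.2% lower. With the length and GC trend removed the balance of both lists turned, to 12 higher and 5 lower and to 11 and 9. Sterol synthesis genes were more often higher, 14 of 23 against 4 lower.

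A second comparison asked whether guides and hairpins differ in the same way where both are aimed at a target. The 6 targeting guide libraries were compared with the 6 targeting hairpin libraries, none of which is among the 6 control libraries. Of 14642 genes tested 57.6% passed, 28.7% higher and 29% lower with targeting guides. Of the 4429 genes higher in the guide control and tested in both, 51.9% were also higher with targeting guides and 12.2% were lower. Of the 4470 lower genes, 52.6% were also lower and 13.1% were higher. Among genes that differed over 2-fold, 70.7% of the 624 higher and 54.9% of the 324 lower went the same way. Genes called in both with the same sign numbered 4653, which is 52.3% of the control calls and 55.9% of the targeting calls. Over 14255 genes the 2 sets of log2 fold changes had a Pearson correlation of 0.495 and a Spearman correlation of 0.465. Genes are not independent, and both sets share the line and the types of construct. The pooled test takes its spread from replicate libraries within an arm, not from the distance between constructs of the same type. Ribosomal RNA made up 1.27 to 2.56% of the counts with targeting hairpin 1, 5.38 to 10.2% with targeting hairpin 2 and 3.78 to 10.04% with the targeting guides, so its difference between the controls was not shared by targeting hairpin 2.

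The size of the gap was then tested gene by gene as the control difference minus the targeting difference over 18 libraries. It differed for 6189 of 14880 genes (41.6%). All 15 of the largest rises were also higher with targeting guides, and 9 of the 15 largest falls were also lower. By arm means, all 3 guide arms lay above all 3 hairpin arms in 12 of the 15 rises (not in SLCO5A1, ADAMTS6 and ZNF618). All 3 guide arms lay below in 4 of the 15 falls, VSIG1, CAV1, CAV2 and ZFAS1. Among the other falls the targeting arms were mixed. These rises and falls were chosen for the distance between the controls, which favours such an order of arms. The share of all genes tested with such an order was not counted.

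FOSB split by construct type. It averaged 20.4 CPM in the hairpin control, 15.1 and 18.8 CPM with targeting hairpins 1 and 2, 194 CPM in the guide control and 179 and 176 CPM with targeting guides 1 and 2. Its targeting difference was log2 fold change 3.39, adjusted p = 3.09e-18, and the gap between the 2 differences did not pass (difference of log2 fold changes -0.15, adjusted p = 0.118). DUSP1 and FOS gave the same picture (log2 fold change 1.81, adjusted p = 2.67e-15 and log2 fold change 2.14, adjusted p = 4.49e-17). JUN was also higher in each guide arm than in each hairpin arm by arm means. EGR1 was not, at 104 CPM with targeting hairpin 1 and 102 CPM with targeting guide 1. Of the 27 immediate early, SRF and YAP target genes, 12 were higher and 11 lower with targeting guides. NKD1 did not split as clearly as FOSB. It averaged 19.6 CPM in the hairpin control, 5.61 and 11.5 CPM with targeting hairpins 1 and 2, 84.7 CPM in the guide control and 34.3 and 20.8 CPM with targeting guides 1 and 2. Targeting guide 2 was level with the hairpin control, although the pooled targeting difference passed (log2 fold change 1.73, adjusted p = 3.61e-07). CLEC3A, a secreted lectin, averaged 9.58 CPM in the hairpin control, 0.779 and 1.01 CPM with targeting hairpins 1 and 2, 51.4 CPM in the guide control and 42.6 and 51.3 CPM with targeting guides 1 and 2, and its targeting difference was larger than its control difference (difference of log2 fold changes -3.27, adjusted p = 3.83e-15).

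Other genes did not split by construct type. DHRS9, highest in the hairpin control, averaged 52.1 CPM in the hairpin control, 9.17 and 22.1 CPM with targeting hairpins 1 and 2, 4.16 CPM in the guide control and 22.6 and 8.32 CPM with targeting guides 1 and 2. Its targeting difference did not pass (log2 fold change -0.05, adjusted p = 0.43). AGR2 averaged 1177 CPM in the hairpin control, 636 and 788 CPM with targeting hairpins 1 and 2, 241 CPM in the guide control and 959 and 374 CPM with targeting guides 1 and 2, with targeting guide 1 nearest to the hairpin control and targeting guide 2 nearest to the guide control. The hairpin control was the highest of the 6 arms in 12 of the 15 falls and the guide control the lowest in 10, in genes chosen for the distance between these 2 arms. ALDH1A3 averaged 359 CPM in the hairpin control, 59.8 and 146 CPM with targeting hairpins 1 and 2, 78.2 CPM in the guide control and 235 and 58.4 CPM with targeting guides 1 and 2. Its pooled targeting difference was a rise, not a fall (log2 fold change 0.32, adjusted p = 3.93e-07). Only targeting guide 1 lay above both targeting hairpins, while targeting guide 2 was level with targeting hairpin 1.

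**Figure D4:**
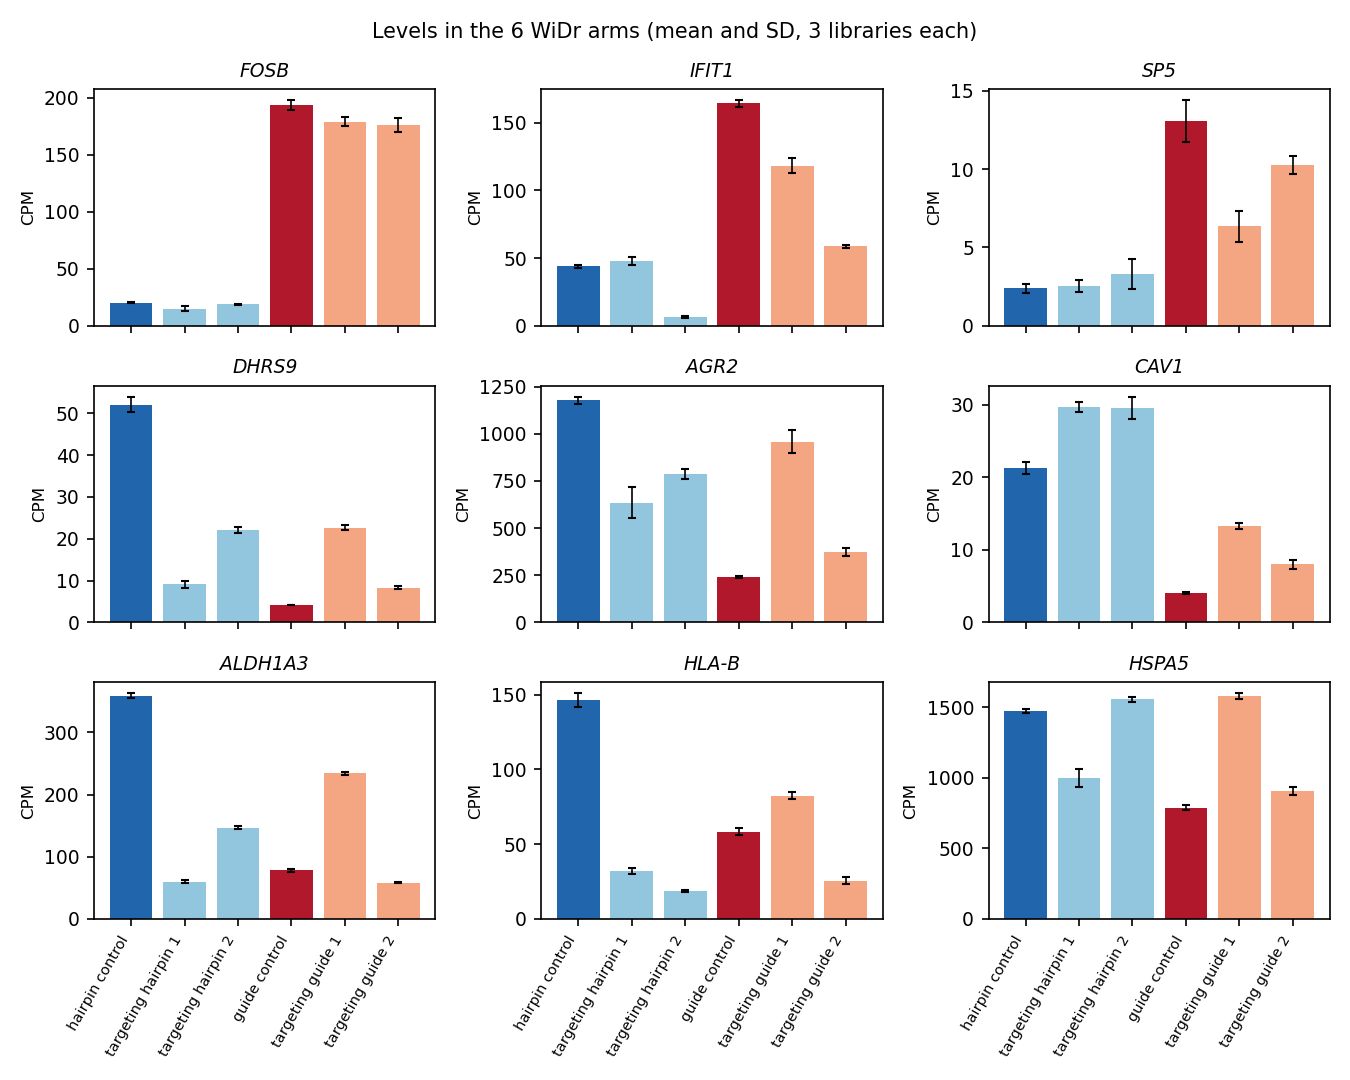
Mean CPM of 9 genes in the 6 WiDr arms, bars with SD over 3 libraries, linear axes from 0, scaled among 18 libraries. FOSB, SP5 and CAV1 split all guide arms from all hairpin arms, while DHRS9, AGR2, ALDH1A3 and HSPA5 are higher with targeting guide 1 than with targeting guide 2.

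Some gene lists kept the direction of their control difference between the targeting arms and others did not. Not every list is described below. The median also turned for retinoid and detoxification genes (-0.31 to 0.36) and for hypoxia and glycolysis genes (-0.29 to 0.02). In the interferon-stimulated list 39 of 40 genes were higher with targeting guides, none was lower, and the median was 1.44. This pooled count hid a difference between the targeting arms. By arm means, targeting guide 1 lay above each targeting hairpin in all 40 genes and above the hairpin control in 37. Targeting guide 2 lay above targeting hairpin 2 in 39 genes, but above targeting hairpin 1 in 17 and above the hairpin control in 10. IFIT1 averaged 44.03 CPM in the hairpin control, 47.6 and 6.31 CPM with targeting hairpins 1 and 2, 164 CPM in the guide control and 118 and 58.7 CPM with targeting guides 1 and 2, lowest with targeting hairpin 2. MX1 averaged 70.02 CPM in the hairpin control, 62.8 and 10.5 CPM with targeting hairpins 1 and 2, 185 CPM in the guide control and 161 and 69.8 CPM with targeting guides 1 and 2. The gap test passed for 33 of the 40 genes. Of 17 Wnt genes 15 were higher with targeting guides (median 0.47), and 14 were higher in both comparisons. By arm means, available for 18 Wnt genes, targeting guide 1 lay above targeting hairpin 1 in 11 and above the hairpin control in 12. Targeting guide 2 lay above targeting hairpin 1 in 15 and above the hairpin control in 13. Of 30 replication genes 26 were higher (median 0.35), and 25 were higher in both. By arm means targeting guide 2 lay above the hairpin control in all 30 replication genes and targeting guide 1 in 11. Of 47 ribosomal protein genes 43 were lower (median -0.30), and 40 were lower in both. By arm means neither targeting guide lay above targeting hairpin 1 in any of the 47. Targeting guide 1 lay above targeting hairpin 2 in 2 of them and targeting guide 2 in 18.

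Class I genes and mitosis genes turned, and stress genes repeated only in part. Of 19 class I genes 18 were higher with targeting guides and none was lower, with a median of 0.46, against 14 lower between the controls. HLA-B averaged 146 CPM in the hairpin control, 32.1 and 18.7 CPM with targeting hairpins 1 and 2, 58.4 CPM in the guide control and 82.5 and 25.6 CPM with targeting guides 1 and 2, and its gap passed (difference of log2 fold changes -2.23, adjusted p = 1.45e-16). By arm means targeting guide 1 lay above each targeting hairpin in all 19 genes, and targeting guide 2 above targeting hairpin 1 in 10 and above targeting hairpin 2 in 15. The gap passed for 18 of the 19 genes. Of 25 mitosis genes 15 were lower and 1 higher with targeting guides, with a median of -0.16, and the gap passed for 23. TOP2A averaged 193 CPM in the hairpin control, 301 and 288 CPM with targeting hairpins 1 and 2, 339 CPM in the guide control and 199 and 337 CPM with targeting guides 1 and 2. Targeting guide 1 lay above targeting hairpin 1 in none of the 25 mitosis genes and targeting guide 2 in 13. Of 27 ATF4 and unfolded protein response genes 11 were lower and 6 higher, with a median of -0.08, and the gap passed for 23. HSPA5 averaged 1474 CPM in the hairpin control, 998 and 1557 CPM with targeting hairpins 1 and 2, 789 CPM in the guide control and 1577 and 906 CPM with targeting guides 1 and 2, with targeting guide 1 near the hairpin control and targeting guide 2 near the guide control.

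**Figure D5:**
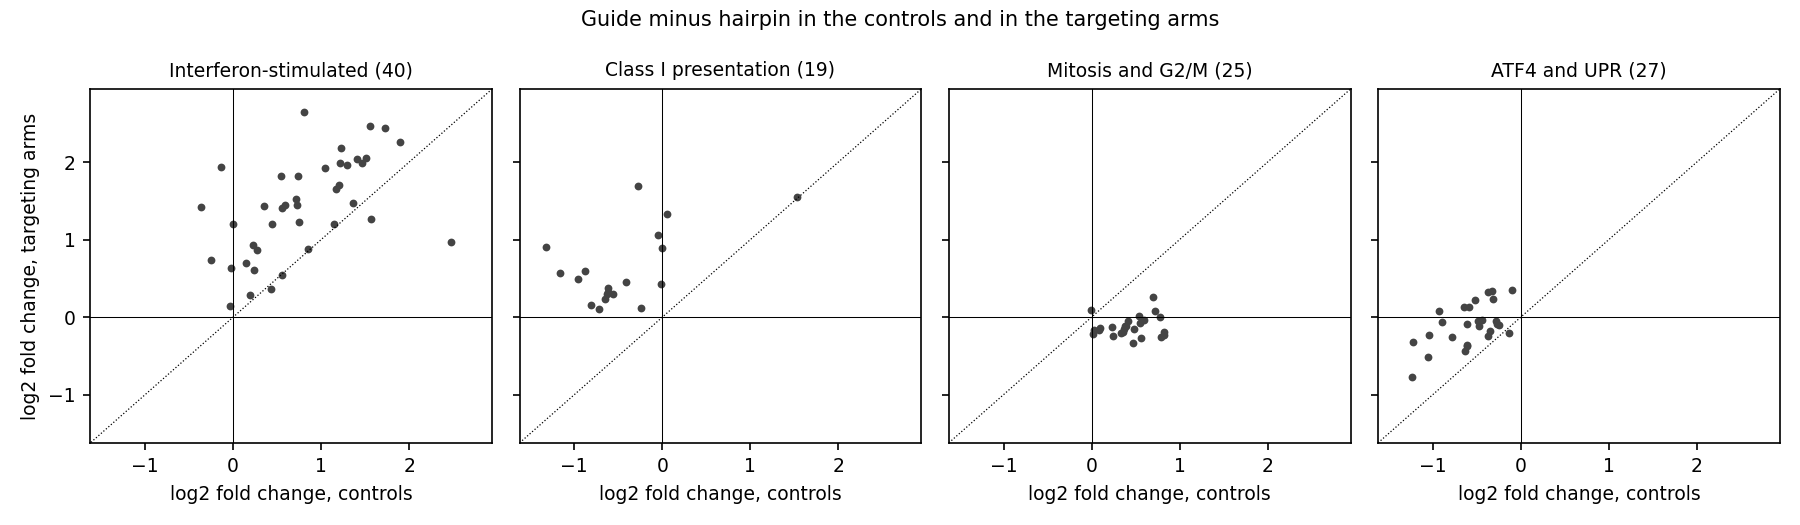
Log2 fold change of each gene of 4 lists between the controls (horizontal axis) and between targeting guides and targeting hairpins (vertical axis), number of genes in parentheses, with the line of equality dotted. Interferon-stimulated genes lie mostly above 0 on both axes, while most class I genes lie below 0 on the horizontal axis and above 0 on the vertical axis.

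Only a few genes were present in 1 control and near absent in the other (at most 3 counts in each library of an arm and at least 1 CPM, without TMM scaling, in each of the other 3). UGT1A3, a glucuronosyltransferase, had 1.19, 1.29 and 1.14 CPM in the guide control. CES1, a carboxylesterase, had 2.05, 2.43 and 2.42 CPM in the hairpin control, and IPO11-LRRC70, a readthrough transcript, had 6.84, 4.60 and 6.41 CPM there and no count in the guide control. UGT1A3 shares exons with its neighbours and the readthrough gene overlaps its parent genes. The same holds for TIAF1 and TVP23C-CDRT4 among the largest falls, and ANKRD36C has near copies, so the values of these genes are uncertain.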

How the data were processed

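Poly-A RNA of WiDr cells was sequenced in 18 libraries, of which the 6 control libraries are compared. The deposited values are expected counts per gene, made with Bowtie2 2.1.0 and RSEM 1.2.15 on hg38 per the submitters' processing notes. The sources used here give neither the gene annotation nor the strand setting. Expected counts were rounded to whole numbers, genes were kept by filterByExpr, and libraries were scaled by TMM in edgeR 4.0.16 (R 4.3.3). Each comparison was a quasi-likelihood F test with Benjamini-Hochberg adjustment over all genes tested and a threshold of 0.05. A standard error is the size of the log2 fold change over the square root of F. The test was checked on simulated data. Named genes were the 15 largest rises and 15 largest falls with a mean of at least 5 CPM and arms that did not overlap, the 4 largest changes in each list, near-absent genes, and further list members named with their list. Symbols were matched to GENCODE 29 (23925 of 26475). The members and lists were chosen with earlier results of these data known. Alternatives were other scalings, filters, DESeq2 1.42.0, a replicate block, a length and GC trend (13471 genes had both), a minimum change of 1.5-fold, no ribosomal RNA rows, all 18 WiDr libraries, and each library left out. The gene addressed by the targeting constructs and a few other genes are not reported here.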

Additional observations from a re-analysis of the deposited data

Results flagged for a closer look

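The control difference and the targeting difference differed for 6189 of 14880 genes by the test of the difference itself (edgeR quasi-likelihood test over 18 libraries, Benjamini-Hochberg), so the guide against hairpin contrast was not the same in size across the 2 comparisons for these genes. Of the 30 genes with the largest rises and falls, 2 were lower in the guide control and higher with targeting guides in the pooled test. ALDH1A3, a retinoic acid synthase, fell between the controls and rose between the pooled targeting arms, and the 2 log2 fold changes differed by -2.52. FIBCD1, a chitin-binding membrane protein, did the same, with a difference of -2.43. It averaged 11.2 CPM in the hairpin control, 1.81 and 3.54 CPM with targeting hairpins 1 and 2, 2.85 CPM in the guide control and 4.87 and 2.49 CPM with targeting guides 1 and 2. In ALDH1A3 and in FIBCD1 only targeting guide 1 lay above both targeting hairpins, so the rise was not shared by targeting guide 2.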

How the results depend on the processing

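The counts of called genes stayed within 1.5 times of the reported values under every alternative run except a minimum change of 1.5-fold, which left 1235 genes. Leaving out 1 library at a time gave 8006 to 8788 called genes, 3954 to 4385 higher, 4052 to 4403 lower and 1034 to 1076 over 2-fold. Same-numbered libraries of the 2 controls did not deviate together (correlations of -0.0349, -0.186 and -0.0906), so the replicate block is only an alternative, and it gave 4390 genes higher and 4327 lower. It ended the call of RPL38, RPL37 and NDUFA1, an accessory subunit of respiratory complex I. Leaving out hairpin control replicate 2 ended the calls of NDUFA1 and COX5B, and several single libraries ended those of the low genes CDH17 and ELF5, while ACTA2 passed without hairpin control replicate 1. CD14, which did not pass, ranged from -0.18 to 0.14 with 1 library left out, and its direction turned without hairpin control replicate 1 (-0.07), hairpin control replicate 2 (-0.01) or guide control replicate 3 (-0.18). Upper-quartile scaling raised the share of higher calls from 49.9% to 56.2%. The median of the proteasome and respiratory chain lists turned to 0.07 and 0.06 with the length and GC trend removed. The cause of these changes was not tested.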

Other observations

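Several groups outside the lists above also differed between the 2 controls. They were chosen by gene name after their values were seen and are given as descriptions. For scale, 31.1% of all genes tested were higher and 31.2% lower in the guide control. Long noncoding RNAs that host small nucleolar RNAs in their introns were lower in the guide control: of 20 tested 15 fell and 1 rose, with a median of -0.71. GAS5 fell from 649 to 239 CPM, ZFAS1 from 529 to 131 CPM and SNHG1 from 315 to 112 CPM, and SNHG4 rose by 0.32 on the log2 scale. Between the targeting arms 12 fell and 2 rose, with a median of -0.23. MALAT1, an abundant nuclear RNA, fell by 1.84 on the log2 scale. The aldehyde dehydrogenase family went mostly the other way, with 12 of 16 members higher, among them ALDH4A1 (39.3 to 84.7 CPM), which breaks down proline, and ALDH7A1 (30.4 to 53.6 CPM), which breaks down lysine. ALDH1A3 and ALDH3B1 were lower. With targeting guides 13 of the 16 were higher and 2 lower. The cell surface proteins CEACAM5 and CEACAM6 fell from 193 to 71.1 CPM and from 345 to 108 CPM, while CEACAM1 rose from 191 to 254 CPM. With targeting guides 3 of the 5 CEACAM genes tested were higher and none was lower, CEACAM6 among them (log2 fold change 0.34), and CEACAM5 did not pass (-0.06). CEACAM genes are near copies, so their separate values are uncertain.

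Neighbouring genes were also read together, in 2342 windows of 25 genes along the chromosomes. The median log2 fold change of a window lay between -0.20 and 0.17 for the middle of the windows (5th to 95th percentile). Of all genes tested 31.1% were higher and 31.2% lower. The highest window, on chromosome 5 from 149492197 to 151812785 (GRCh38, CSNK1A1 to G3BP1), had a median of 0.55, with 14 genes higher and 2 lower. CD74, the invariant chain of class II molecules, rose from 8.81 to 30.9 CPM, GPX3, a secreted glutathione peroxidase, from 4.50 to 15.1 CPM and ANXA6, an annexin, from 5.06 to 15.5 CPM. The abundant genes CSNK1A1, TCOF1 and G3BP1 of this window did not pass. Between the targeting arms the window had 12 genes higher and 3 lower. The lowest window, on chromosome 1 from 109616104 to 112707434, had a median of -0.37, with 6 genes higher and 17 lower, and DRAM2, a lysosomal membrane protein, fell from 76.0 to 44.3 CPM.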
